A study of Mus musculus with 16 samples.

Results

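Expression of 7 genes was followed through 6 sorted stages of mouse B cells on the way from the germinal centre to memory. They are the forkhead factor genes Foxo1, Foxo3, Foxo4 and Foxp1, and 3 genes counted among the targets of FOXO factors or the markers of resting cells, Tsc22d3, Txnip and Ccng2. They were chosen by symbol from the 23234 named genes of the deposited table, and each symbol matched 1 row. All 7 reached at least 1 FPKM (fragments scaled to transcript length and to library size) in each of the 16 libraries, so all 7 were among the 11266 genes tested.

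FOXO proteins are forkhead transcription factors that act as a sensor of growth signals. When phosphoinositide 3-kinase (PI3K) and the kinase AKT are active, AKT phosphorylates FOXO proteins, which are then held in the cytoplasm by 14-3-3 proteins. When the signal ends they enter the nucleus and switch on genes for cell cycle arrest, stress resistance and homing. FOXO1 is needed for B cell development and for the dark zone programme of the germinal centre, and FOXP1, a forkhead factor of another subfamily, is lower in germinal centre than in resting B cells. RNA sequencing reads the message of these genes and not where their proteins lie in the cell.

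All cells came from C57BL/6 donor B cells of genotype Bcl6-YFP(KI/+) B1-8hi(KI/+), in which a B1-8hi knock-in heavy chain favours binding of the hapten NP and a knock-in YFP reports the germinal centre factor BCL6. Every group therefore carries both knock-in alleles. Naive donor cells were put into wild-type CD45.1+ recipients, which were immunised with NP-CGG in alum, and on day 10 the splenocytes of 9 recipients were pooled and sorted for donor (CD45.2+), NP+, IgG1+, CD138- cells. The light zone gate (LZ, n = 3 libraries) was CD38-, CD86hi and CXCR4lo. Fraction 2 (n = 2, labelled recycling-prone) was the part of that gate with high Bcl6-YFP and high CD69, and Fraction 3 (n = 3) its counterpart with low CD69. Fractions 5, 6 and 7 were CD38+ and GL7-. Fraction 5 (n = 3, labelled pro-memory) had high Bcl6-YFP and high Efnb1, Fraction 6 (n = 2, pre-memory) low Bcl6-YFP and high Efnb1, and Fraction 7 (n = 3, mature memory) was low for both. Nothing in the labels ties the libraries of a gate to separate pools of recipients. The p-values therefore measure spread between libraries only, which may be technical.

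RefSeq promoter windows (build GRCm38.p6, the 250 bases before the start site) were found for 6 of the 7 members, 10 windows in all; Foxo4 was not matched. They were searched on both strands for the forkhead core TGTTTAC, the E-box CACGTG, a full glucocorticoid element and the CCAAT box CCAAT. The windows of 3 members are printed: Txnip, because it is the only member window with a forkhead core, and Foxo1 and Foxo3, because these 2 family members ran in opposite directions in the memory gates. Capitals mark motif matches, and sequences run 5′ to 3′ on the gene's strand.
Txnip: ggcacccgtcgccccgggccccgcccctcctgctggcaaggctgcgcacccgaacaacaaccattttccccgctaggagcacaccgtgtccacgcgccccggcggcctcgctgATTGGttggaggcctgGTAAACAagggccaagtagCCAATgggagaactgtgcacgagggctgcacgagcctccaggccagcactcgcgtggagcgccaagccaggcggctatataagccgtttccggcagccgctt
Foxo1: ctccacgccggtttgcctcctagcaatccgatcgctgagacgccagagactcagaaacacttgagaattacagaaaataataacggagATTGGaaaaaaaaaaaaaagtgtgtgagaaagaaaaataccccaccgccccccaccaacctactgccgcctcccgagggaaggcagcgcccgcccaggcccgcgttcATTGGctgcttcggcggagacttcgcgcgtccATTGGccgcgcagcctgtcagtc
Foxo3: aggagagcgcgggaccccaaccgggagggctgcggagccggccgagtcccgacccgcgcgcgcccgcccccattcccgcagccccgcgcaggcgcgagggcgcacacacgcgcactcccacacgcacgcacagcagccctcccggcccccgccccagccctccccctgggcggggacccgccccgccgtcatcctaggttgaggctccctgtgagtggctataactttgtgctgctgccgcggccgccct

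The Txnip window lies at chr3:96557707-96557956 on the plus strand. Its forkhead core reads GTAAACA, the reverse complement of the core, from 121 to 115 bases before the start, between an ATTGG 137 to 133 bases before it and a CCAAT 102 to 98 bases before it. Of all 32851 RefSeq windows of this length, 3.17% held the forkhead core and 33.8% a CCAAT box. The Foxo1 window (chr3:52268087-52268336, plus strand) held 3 reversed CCAAT boxes, from 162 to 158, 55 to 51 and 23 to 19 bases before the start. The Foxo3 window (chr10:42276696-42276945, minus strand) held none of the 4 motifs and had a GC content of 76.4%, against 56.0% for Foxo1, 66.8% for Txnip and a median of 52.4% over all windows. Among the other member windows, 1 of the 3 Foxp1 windows held a reversed CCAAT box, 36 to 32 bases before its start. The E-box stood in 6.02% and the full glucocorticoid element in 0.00913% of all windows. A match describes letters and is not a measured binding site.

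The libraries were of like size. Summed FPKM ran from 416741 to 492578, and 10133 to 10552 genes reached 1 FPKM. Depth relative to LZ library 1, read from the smallest steps between low values, ranged over 0.921 to 1.21. Absolute depth is unknown, so no counting intervals are given. The gates were visible in the message. The 11 libraries sorted as LZ or Bcl6-YFPhi had Bcl6 at 145 to 205 FPKM, those of Fraction 6 at 70.2 and 75.3 and those of Fraction 7 at 15.01 to 20.5. Cd38 was 8.92 to 12.8 FPKM in the CD38- gates and 48.2 to 77.0 in Fractions 5 to 7. Cd69 message did not separate Fraction 2 (13.3 and 13.4) from Fraction 3 (9.49 to 14.4). The B cell marker Cd79a was 657 to 1503 FPKM, and Pax5 137 to 238, over the 16 libraries. In Fraction 7, libraries 2 and 3 stood apart from library 1 in some of the 7 plasma cell genes listed. Igj was 296 and 292 against 46.9 FPKM and Sdc1, the gene of CD138, 4.44 and 4.51 against 0.502. Xbp1 (84.9 and 81.3 against 34.0) and Slpi (131 and 55.7 against 34.0) were also higher. Irf4 (20.6 and 21.4 against 19.5) and Prdm1 (2.00 and 1.97 against 1.37) differed less. Tnfrsf17 (2.44 and 4.73 against 3.02) went both ways. Values without those 2 libraries are given for the members and for some of the list results in Fraction 7, not for all. The macrophage and monocyte list summed to 38.0 to 98.7 FPKM in Fraction 7 against 6.82 to 19.1 elsewhere, carried by Ly6c2 (16.1 to 67.9 against at most 3.17) and Itgam (8.22 to 12.8 against at most 1.53). Csf1r and C1qa, which define macrophages, stayed at or below 0.528 and 0.404 in all libraries. The T cell gene Cd3e was at most 0.103 FPKM and was listed at 0 in Fraction 7. Other T cell genes were not at 0 in Fraction 7, with Cd3d at 0.328 to 0.683 FPKM. Cd4 reached 0.325 there against at most 0.165 elsewhere. Lck, also on the T cell list, was 6.20 to 7.86 FPKM in Fraction 7 and up to 36.5 in Fraction 3.

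Tests were made with limma on log2(FPKM + 1), so each log2 change is on that scale and understates the change of low genes. P-values were adjusted over all 11266 tested genes within a comparison with a threshold of 0.05. There were 7 comparisons, and those that share a group share its libraries. Of all tested genes, 15.6% passed in Fraction 2 against Fraction 3, 29.5% in Fraction 5 against Fraction 3, 43.7% in Fraction 5 against Fraction 2 and 17.5% in Fraction 6 against Fraction 5. For the gates at the end of the series the shares were 21.2% in Fraction 7 against Fraction 6, 47.6% in Fraction 7 against Fraction 5 and 62.1% in Fraction 7 against LZ. In bulk libraries, a lower share of cells with a message and less of it per cell cannot be told apart.

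Foxo1, the most abundant FOXO gene, peaked in the pro-memory gate and was lowest in mature memory. Its level was 31.2, 31.4 and 31.97 FPKM in the LZ libraries, 28.6 and 26.9 in Fraction 2 and 32.7, 34.4 and 35.0 in Fraction 3. It was 41.7, 48.5 and 38.4 FPKM in Fraction 5, 32.9 and 29.9 in Fraction 6 and 17.1, 19.7 and 12.9 in Fraction 7. Every Fraction 7 library lay below every other library and every Fraction 5 library above every other. Of neighbours in the order of means (Fraction 7, Fraction 2, Fraction 6, LZ, Fraction 3, Fraction 5) only Fraction 6 and LZ overlapped. Fraction 6 also overlapped Fraction 3, since its library 1 (32.9) lay above Fraction 3 library 1 (32.7). Group means were 42.9 ± 5.12 (SD, n = 3) in Fraction 5 and 16.6 ± 3.43 (SD, n = 3) in Fraction 7, and the log2 change between them was -1.33 (SE 0.12, adjusted p = 6.52e-07). The larger part of that fall lay between Fraction 6 and Fraction 7, at -0.90 (SE 0.13, adjusted p = 0.000287), where 5.9% of tested genes had a larger absolute change.

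The step from Fraction 5 to Fraction 6 also passed for Foxo1, at -0.43 (SE 0.13, adjusted p = 0.0395), a call that did not hold in every setting. It was lost when either Fraction 6 library or Fraction 5 library 1 or 2 was left out (log2 change between -0.50 and -0.34, adjusted p between 0.0659 and 0.229). It was also lost when any 1 of the LZ or Fraction 3 libraries was left out (0.0501 to 0.0517), with quantile normalization (-0.36, adjusted p = 0.0751), without the filter on low values (0.107) and in a fit to the compared groups alone (0.0688). Against LZ, Foxo1 fell in Fraction 7 by 0.91 on the log2 scale (adjusted p = 1.59e-05). Both Fraction 2 libraries lay below all 3 Fraction 3 libraries, yet the change of -0.28 (SE 0.13, adjusted p = 0.174) did not pass. The change from Fraction 3 to Fraction 5, 0.32 (SE 0.12, adjusted p = 0.0599), did not pass either. It did with quantile normalization (0.45, adjusted p = 0.0119), with median-ratio scaling (0.38, adjusted p = 0.0172), and in a fit to the compared groups alone (adjusted p = 0.0467). It also passed without Fraction 5 library 3 (adjusted p = 0.0459), Fraction 7 library 2 (0.0312) or Fraction 7 library 3 (0.0125).

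Foxo3, which shares the AKT-regulated design of Foxo1, ran the other way from Fraction 5 on. It stood at 2.66, 3.12 and 2.48 FPKM in LZ, 3.17 and 2.37 in Fraction 2 and 3.27, 3.23 and 3.16 in Fraction 3. The CD38+ gates held 5.54, 5.58 and 4.36 FPKM in Fraction 5, 7.25 and 8.23 in Fraction 6 and 11.9, 8.37 and 8.08 in Fraction 7. The 8 libraries of LZ, Fraction 2 and Fraction 3 lay below all 8 libraries of Fractions 5 to 7, the range of Fraction 2 met those of LZ and Fraction 3, and the ranges of Fractions 6 and 7 overlapped. Mean Foxo3 was 2.75 ± 0.328 (SD, n = 3) in LZ and 9.45 ± 2.13 (SD, n = 3) in Fraction 7, a rise of 1.46 (SE 0.14, adjusted p = 6.72e-07) on the log2 scale. It rose from Fraction 3 to Fraction 5 by 0.54 (SE 0.14, adjusted p = 0.0106) and from Fraction 5 to Fraction 7 by 0.75 (SE 0.14, adjusted p = 0.000543). The intermediate step to Fraction 6, 0.51 (SE 0.16, adjusted p = 0.0375), was lost when either Fraction 6 library or Fraction 5 library 2 or 3 was left out (log2 change between 0.41 and 0.59, adjusted p between 0.0518 and 0.226). It was also lost without the filter (0.0908) and in a fit to the compared groups alone (0.0677). Fraction 7 and Fraction 6 differed by 0.24 (SE 0.16, adjusted p = 0.319), with a 95% interval of -0.10 to 0.58.

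Foxo4, a FOXO gene also regulated by AKT, was as low as Foxo3 and was also highest in mature memory. Its levels were 3.95, 2.79 and 3.33 FPKM in LZ, 3.15 and 4.26 in Fraction 2 and 2.76, 3.62 and 4.36 in Fraction 3. They were 6.14, 4.20 and 5.29 FPKM in Fraction 5, 5.92 and 8.10 in Fraction 6 and 8.75, 7.42 and 7.95 in Fraction 7. Neighbouring groups in the order of means (LZ, Fraction 3, Fraction 2, Fraction 5, Fraction 6, Fraction 7) overlapped in every case, while all Fraction 7 libraries lay above all libraries of LZ and of Fractions 2, 3 and 5. Foxo4 rose from 3.36 ± 0.583 (SD, n = 3) in LZ to 8.04 ± 0.671 (SD, n = 3) in Fraction 7, a log2 change of 1.06 (SE 0.17, adjusted p = 8.13e-05). Fraction 7 was also above Fraction 5 by 0.55 (SE 0.17, adjusted p = 0.0144), a call lost without Fraction 5 library 2 (adjusted p = 0.0686) and without Fraction 7 libraries 2 and 3 (adjusted p = 0.0635). Fraction 2 and Fraction 3 differed by 0.04 with a 95% interval of -0.36 to 0.44, and the difference turned to -0.01 with quantile normalization, to -0.13 without Fraction 2 library 2 and to -0.09 without Fraction 3 library 1. The change from Fraction 3 to Fraction 5, 0.44 (SE 0.17, adjusted p = 0.0617), did not pass. It passed without Fraction 5 library 2 (adjusted p = 0.0330) or Fraction 3 library 3 (adjusted p = 0.0358) and with array weights (adjusted p = 0.0189) or median-ratio scaling (adjusted p = 0.0354). Against Fraction 2 the change in Fraction 5 was 0.40 (SE 0.19, adjusted p = 0.10), and it passed without Fraction 5 library 2 (adjusted p = 0.0474) or with median-ratio scaling (adjusted p = 0.0485).

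**Figure D1:**
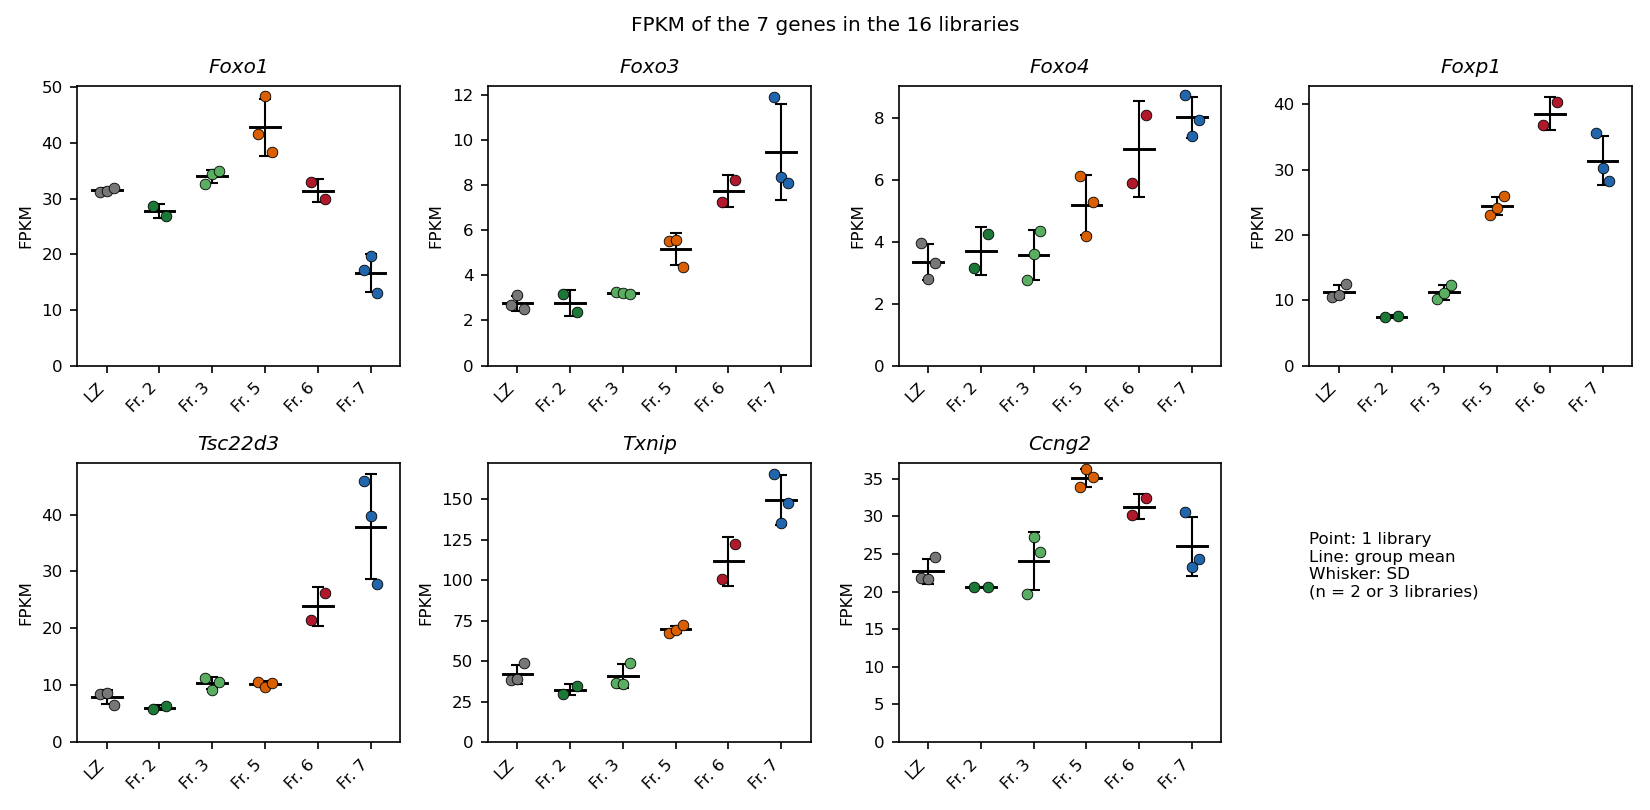
FPKM of the 7 genes in each of the 16 libraries, 1 panel a gene with its own vertical axis from 0; points are libraries and bars the group mean ± SD (n = 3 for LZ and Fractions 3, 5 and 7, n = 2 for Fractions 2 and 6). Foxo1 was highest in Fraction 5 and lowest in Fraction 7, while Foxo3, Foxo4, Tsc22d3 and Txnip had their highest mean in Fraction 7, Foxp1 in Fraction 6 and Ccng2 in Fraction 5.

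Because FPKM is per transcript length, the 3 FOXO messages can be set against each other in a library, as a description with no test. Foxo1 made up 82.5 to 84.6% of the summed FPKM of Foxo1, Foxo3 and Foxo4 in LZ, 80.3 to 81.9% in Fraction 2, 82.3 to 84.4% in Fraction 3 and 78.1 to 83.2% in Fraction 5. It made up 71.4 and 64.7% in the Fraction 6 libraries and between 44.7 and 55.6% in Fraction 7. The share therefore stayed within a narrow band through the 4 gates with high Bcl6 and was lower in both Bcl6-YFPlo gates, with no overlap between Fraction 6 and Fraction 7. The sum of the 3 messages was 37.6 ± 0.295 FPKM (SD, n = 3) in LZ, 53.2 ± 5.08 (n = 3) in Fraction 5 and 34.1 ± 4.57 (n = 3) in Fraction 7. The totals of LZ and Fraction 7 overlapped. Foxo1 was 10.1 to 12.9 times Foxo3 in LZ, 7.53 to 8.81 times in Fraction 5, 4.54 and 3.63 times in Fraction 6 and 1.44 to 2.36 times in Fraction 7.

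**Figure D2:**
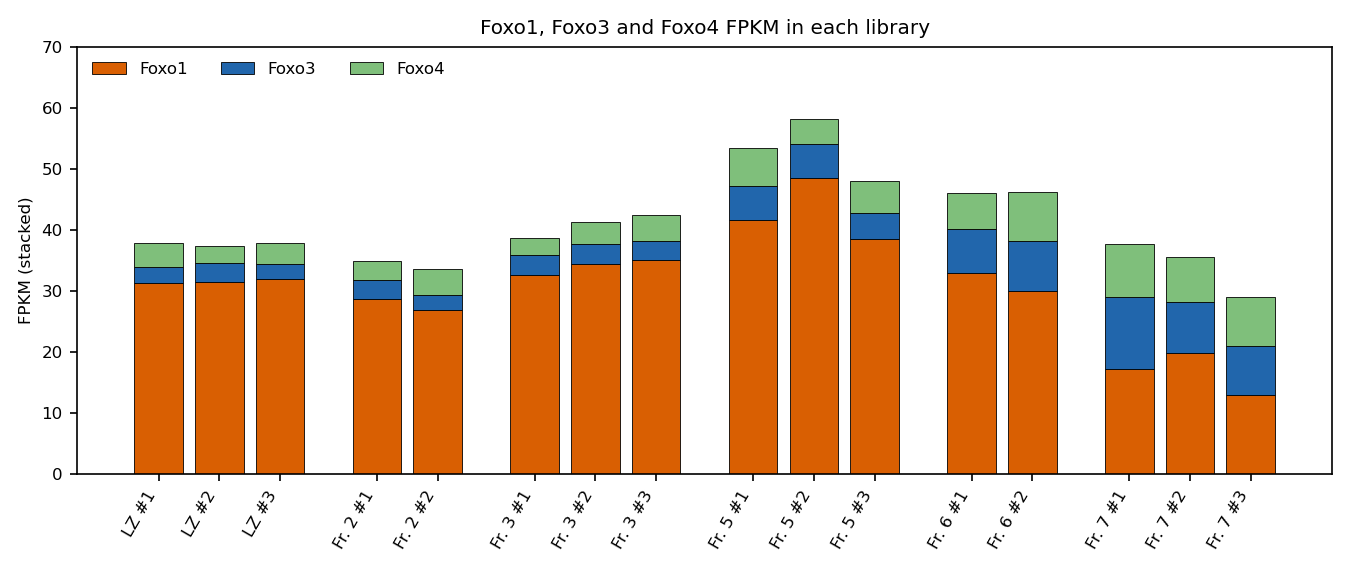
FPKM of Foxo1, Foxo3 and Foxo4 stacked for each of the 16 libraries, with the vertical axis in FPKM from 0. The Foxo1 part shrinks from 82.5 to 84.6% of the stack in LZ to 44.7 to 55.6% in Fraction 7, while the Foxo3 and Foxo4 parts grow.

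Foxp1 had a wider span than the FOXO genes, with its highest group mean 5.15 times its lowest, against 2.58 for Foxo1, 3.43 for Foxo3 and 2.39 for Foxo4. Its level was 10.6, 10.9 and 12.4 FPKM in LZ, 7.35 and 7.62 in Fraction 2 and 10.1, 11.1 and 12.3 in Fraction 3. It reached 23.1, 24.2 and 25.9 FPKM in Fraction 5, 36.8 and 40.4 in Fraction 6 and 35.6, 30.2 and 28.3 in Fraction 7. The order was Fraction 2, then Fraction 3 and LZ, which overlapped, then Fraction 5, Fraction 7 and Fraction 6, each clear of its neighbours. Mean Foxp1 was 11.2 ± 1.11 (SD, n = 3) in Fraction 3 and 24.4 ± 1.4 (SD, n = 3) in Fraction 5, a rise of 1.06 (SE 0.10, adjusted p = 9.06e-06). Only 2.2% of tested genes had a larger absolute change in that comparison. A further rise of 0.64 (SE 0.11, adjusted p = 0.000865) separated Fraction 6 (38.6 ± 2.55 (SD, n = 2)) from Fraction 5. Both Fraction 7 comparisons with earlier gates passed, at 1.39 (SE 0.10, adjusted p = 2.72e-08) against LZ and 0.34 (SE 0.10, adjusted p = 0.00932) against Fraction 5. Fraction 7 lay below Fraction 6 in every library pair, but the change of -0.29 (SE 0.11, adjusted p = 0.0700) did not pass. It passed without Fraction 7 library 1 (adjusted p = 0.0173) or with array weights (adjusted p = 0.0185).

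Within the light zone, Foxp1 had the lowest adjusted p of the 7 genes between the CD69 gates. It was lower in Fraction 2 than in Fraction 3 by 0.52 (SE 0.11, adjusted p = 0.00662) on the log2 scale, a call lost without Fraction 2 library 1 (adjusted p = 0.0573). As a ratio per length, Foxo1 message was 2.57 to 2.96 times Foxp1 message in LZ, 3.53 to 3.89 times in Fraction 2 and 1.48 to 2.00 times in Fraction 5. The ratio was 0.741 to 0.896 in Fraction 6 and 0.457 to 0.655 in Fraction 7, so Foxp1 was the more abundant of the 2 in each library of the Bcl6-YFPlo gates.

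Tsc22d3 encodes GILZ, a leucine zipper protein induced by glucocorticoids and by FOXO factors. It measured 8.42, 8.70 and 6.48 FPKM in LZ, 5.76 and 6.31 in Fraction 2 and 11.2, 9.15 and 10.6 in Fraction 3. The later gates held 10.6, 9.70 and 10.4 FPKM in Fraction 5, 21.5 and 26.3 in Fraction 6 and 46.0, 39.8 and 27.9 in Fraction 7. The ranges of Fractions 3 and 5 overlapped, and the change between them was -0.01 (SE 0.16, adjusted p = 0.967) with a 95% interval of -0.35 to 0.33. This value near 0 turned positive with either other scaling (0.05 and 0.04) and without Fraction 3 library 1 (0.04) or 3 (0.01) or Fraction 5 library 2 (0.02). The rise came at Fraction 6, at 1.14 (SE 0.17, adjusted p = 0.000404), and all libraries of Fractions 6 and 7 lay above all others. From 10.2 ± 0.453 (SD, n = 3) in Fraction 5 it reached 37.9 ± 9.21 (SD, n = 3) in Fraction 7, a log2 change of 1.77 (SE 0.16, adjusted p = 5.80e-07) that only 4.28% of tested genes exceeded in size.

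The last step of Tsc22d3, from Fraction 6 to Fraction 7, was 0.62 (SE 0.17, adjusted p = 0.0213). It was lost without Fraction 6 library 1 (adjusted p = 0.186), Fraction 7 library 1 (0.0657) or Fraction 7 library 2 (0.0625), without the filter (0.0632), and in a fit to the compared groups alone (0.130). Tsc22d3 was lower in Fraction 2 than in Fraction 3, at -0.68 (SE 0.17, adjusted p = 0.0196), with no overlap between the libraries. That call was lost when Fraction 2 library 1 or 2 or Fraction 3 library 1 or 3 was left out (adjusted p between 0.0551 and 0.119) and without the filter (0.0627). Fraction 5 was above Fraction 2 by 0.67 (SE 0.17, adjusted p = 0.00680), a call lost without Fraction 2 library 1 (adjusted p = 0.0539).

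Txnip, the highest of the 7 messages in Fraction 7, encodes an arrestin-like protein that binds thioredoxin and promotes the removal of glucose transporters from the cell surface. Its level was 38.2, 38.8 and 48.7 FPKM in LZ, 29.9 and 34.6 in Fraction 2 and 36.8, 36.1 and 49.1 in Fraction 3. It was 67.5, 69.3 and 72.1 FPKM in Fraction 5, 101 and 122 in Fraction 6 and 166, 135 and 148 in Fraction 7. From Fraction 3 on, each gate lay wholly above the one before it, and Fraction 2 lay wholly below Fraction 3 and LZ. Txnip rose from 40.7 ± 7.29 (SD, n = 3) in Fraction 3 to 69.6 ± 2.32 (SD, n = 3) in Fraction 5, a log2 change of 0.78 (SE 0.13, adjusted p = 0.000605). It rose again in Fraction 6, at 0.67 (SE 0.14, adjusted p = 0.00517), a call lost without Fraction 6 library 2 (adjusted p = 0.0844). Fraction 7, at 149.7 ± 15.5 (SD, n = 3), was above Fraction 5 by 1.09 (SE 0.13, adjusted p = 9.85e-06) and above LZ by 1.82 (SE 0.13, adjusted p = 3.47e-08). The step from Fraction 6 to Fraction 7, 0.42 (SE 0.14, adjusted p = 0.0536), did not pass. It passed with quantile normalization (adjusted p = 0.00967), with median-ratio scaling (0.0146), and with a filter of at least 5 FPKM (0.0496). It also passed without Fraction 7 library 2 (0.0459), LZ library 3 (0.0407) or Fraction 3 library 3 (0.0258).

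The library kit does not mark the strand, so reads of Txnip cannot be told apart from those of Gm15441, annotated on the opposite strand over Txnip exons. Gm15441 had 0.0403 to 2.15 FPKM, and Txnip was at least 46.2 times higher in each library. A gene opposite Foxo1, Gm20402, and 2 on the strand of Foxp1, Gm20696 and Gm49348, are annotated over exons of those members and are not used here.

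Ccng2, an unconventional cyclin associated with cell cycle exit, had its highest mean in Fraction 5, as Foxo1 did. It was 21.8, 21.7 and 24.6 FPKM in LZ, 20.6 and 20.7 in Fraction 2 and 19.7, 27.3 and 25.3 in Fraction 3. In the later gates it was 33.9, 36.3 and 35.3 FPKM in Fraction 5, 30.2 and 32.5 in Fraction 6 and 30.5, 23.2 and 24.4 in Fraction 7. All Fraction 5 libraries lay above all others, and LZ and Fractions 3, 7 and 6 overlapped their neighbours in the order of means. Ccng2 rose from 24.1 ± 3.91 (SD, n = 3) in Fraction 3 to 35.1 ± 1.21 (SD, n = 3) in Fraction 5 by 0.54 (SE 0.11, adjusted p = 0.00325). It fell from Fraction 5 to Fraction 7 (26.1 ± 3.94 (SD, n = 3)), with a log2 change of -0.43 (SE 0.11, adjusted p = 0.00736), a call lost without Fraction 7 libraries 2 and 3 (-0.20, adjusted p = 0.329). Against LZ, the change of Ccng2 in Fraction 7 was 0.18 (SE 0.11, adjusted p = 0.180) with a 95% interval of -0.06 to 0.43. It passed as a rise with quantile normalization (0.45, adjusted p = 0.00125), with median-ratio scaling (0.36, adjusted p = 0.00654) and without Fraction 7 libraries 2 and 3 (0.42, adjusted p = 0.0319). Its change from Fraction 6 to Fraction 7, -0.27 (SE 0.13, adjusted p = 0.172), did not pass, and of the settings tried passed without Fraction 7 library 1 (adjusted p = 0.0392) or with array weights (adjusted p = 0.0338).

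Set side by side, the 7 genes did not all move the same way. In Fraction 2 against Fraction 3, Foxp1 and Tsc22d3 were lower and the other 5 did not pass, beside 15.6% of all tested genes passing, 9.17% as higher and 6.45% as lower. The libraries of 4 of the 7 did not overlap, beside 48.1% of all tested genes. The median log2 change of the 7 was -0.28, beside 0.04 over all tested genes.

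From Fraction 3 to Fraction 5, 4 genes rose (Foxo3, Foxp1, Txnip and Ccng2) and 3 did not pass, beside 29.5% of all genes passing, 9.99% as higher and 19.5% as lower. The groups did not overlap for 5 of the 7, beside 44.1% of all genes, and the median change was 0.54 beside -0.03. From Fraction 2 to Fraction 5, 6 rose and Foxo4 did not pass, beside 43.7% passing, 16.6% as higher and 27.1% as lower. Here 6 of the 7 did not overlap, beside 62.5% of all genes, with a median of 0.71 beside -0.04. Foxp1 changed most, by 1.58 (SE 0.11, adjusted p = 3.29e-07), followed by Txnip at 1.09 (SE 0.14, adjusted p = 4.36e-05). Both comparisons use the same Fraction 5 libraries.

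From Fraction 5 to Fraction 6, 4 of the 7 rose (Foxo3, Foxp1, Tsc22d3 and Txnip), Foxo1 fell and 2 did not pass, beside 17.5% of all genes passing, 7.07% as higher and 10.4% as lower. The groups did not overlap for 6, beside 47.9% of all genes. From Fraction 6 to Fraction 7, Tsc22d3 rose, Foxo1 fell and 5 did not pass, beside 21.2% passing, 7.37% as higher and 13.9% as lower, and 4 did not overlap, beside 46.4%. The median change of the 7 was 0.51 in the earlier and 0.19 in the later of these steps, beside -0.0021 and -0.05 over all tested genes.

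Over both steps, from Fraction 5 to Fraction 7, all 7 passed, 5 as higher and Foxo1 and Ccng2 as lower, beside 47.6% of all genes passing, 19.1% as higher and 28.5% as lower. None of the 7 overlapped between these groups, beside 53.7% of all genes not overlapping. Against LZ, 5 genes rose in Fraction 7, Foxo1 fell and Ccng2 did not pass, beside 62.1% of all genes passing, 24.1% as higher and 38% as lower. The groups did not overlap for 6 of the 7, beside 64.4% of all genes, and the median change was 1.39 beside -0.10.

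Without libraries 2 and 3 of Fraction 7, the ones high in Igj and Sdc1, Foxo1 in Fraction 7 against Fraction 6 was -0.84 and Tsc22d3 0.92. Against Fraction 5, Foxo1 was -1.27 (adjusted p = 5.47e-06), Foxo3 1.07 (adjusted p = 0.000395), Foxp1 0.53 (adjusted p = 0.00578), Tsc22d3 2.07 (adjusted p = 2.36e-06) and Txnip 1.24 (adjusted p = 0.000311). Against LZ, Foxo1 was -0.84 (adjusted p = 7.77e-05), Foxo3 1.78 (adjusted p = 4.83e-06), Foxo4 1.17 (adjusted p = 0.00246), Foxp1 1.58 (adjusted p = 1.14e-06), Tsc22d3 2.42 (adjusted p = 4.32e-07) and Txnip 1.97 (adjusted p = 5.30e-06). All of these kept their direction and passed. The lone Fraction 7 library is assumed in this fit to vary like the other groups.

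**Figure D3:**
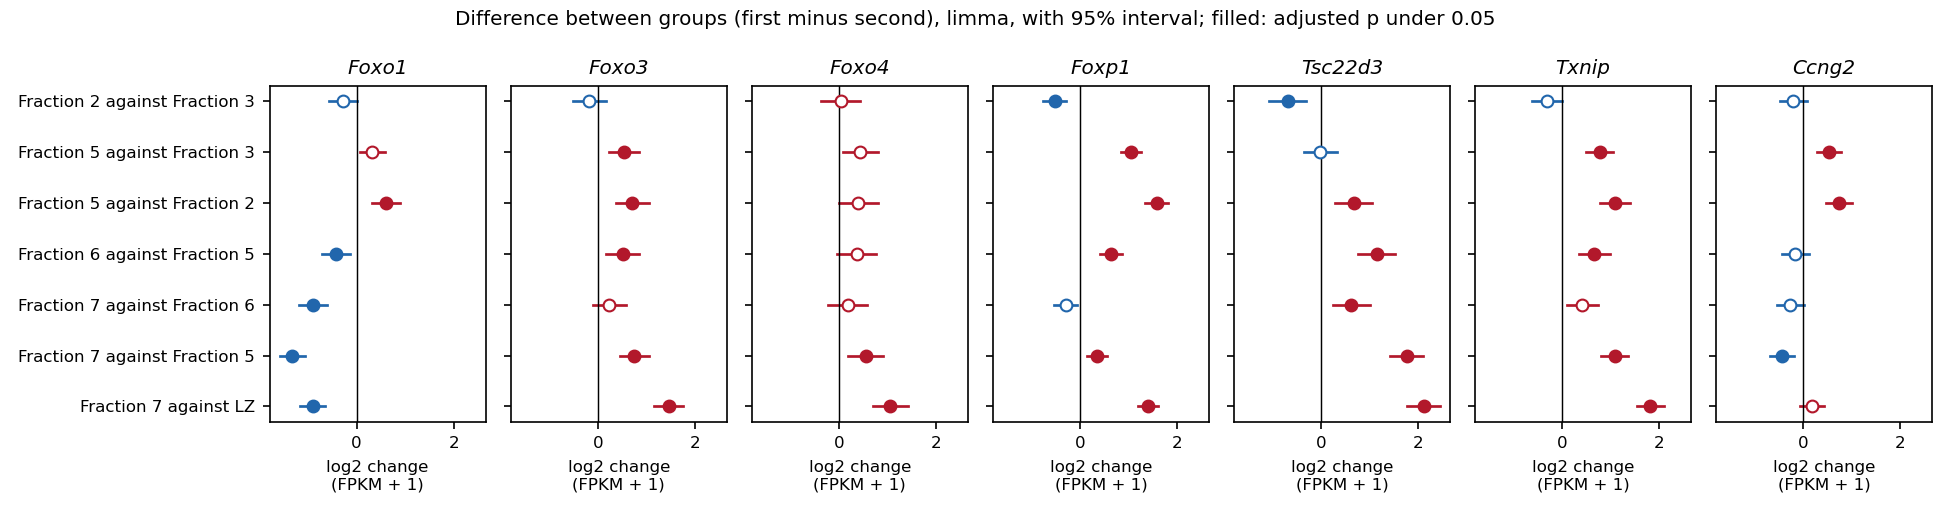
Log2 change of each of the 7 genes in the comparisons, on the log2(FPKM + 1) scale, with 95% intervals from limma; the line at 0 marks no change and filled points passed an adjusted p of 0.05. Foxo1 goes from 0.60 in Fraction 5 against Fraction 2 to -0.90 in Fraction 7 against Fraction 6, while Foxp1 is at 1.58 and 1.06 in Fraction 5 against Fractions 2 and 3. Tsc22d3 is at 1.14 in Fraction 6 against Fraction 5 and at 2.11 in Fraction 7 against LZ.

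Likeness of pattern was measured as the root mean square difference of the 6 group means of log2(FPKM + 1), each gene centred on its own mean, where 0 is an identical pattern. Among the members, Foxo3 and Foxo4 were closest (0.181), then Foxo3 and Txnip (0.237), Tsc22d3 and Txnip (0.25) and Foxp1 and Txnip (0.257). Foxo1 was farthest from Tsc22d3 (1.16) and from Txnip (1.06). Of 8654 genes compared over the 6 groups, the nearest to Foxo1 were Twsg1 (0.0702), Rab30 (0.0783) and Dhx40 (0.0861). Arid5b (0.0505), Jhdm1d (0.0594) and Pde4b (0.0615) were nearest to Foxo3, and Ogt (0.0433), Trim30a (0.0464) and Wdr45 (0.0481) to Foxo4. Foxp1 had more distant neighbours, Sla (0.127), Calcoco1 (0.134) and Mylip (0.147), as did Tsc22d3, with Fry (0.133), Rasgrp2 (0.15) and Cybasc3 (0.167). Nearest to Txnip were Fam101b (0.0605), the long non-coding RNA Neat1 (0.0783) and Tspan32 (0.0795), and to Ccng2 Gpr137 (0.0496), H2-M3 (0.0593) and Csad (0.0617).

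The upstream kinase axis did not move as a unit. Of 23 tested genes of PI3K, AKT and their brakes, 10 fell and 4 rose from Fraction 6 to Fraction 7, with a median log2 change of -0.23 beside -0.05 over all tested genes. Without Fraction 7 libraries 2 and 3, 4 fell and 5 rose with a median of -0.12, and the median was -0.14 with quantile normalization and -0.15 with median-ratio scaling. Akt1, the gene of 1 of the AKT kinases, fell from 97.8 ± 6.15 FPKM (SD, n = 3) in LZ to 47.2 ± 4.92 (n = 3) in Fraction 7, by 1.04 on the log2 scale (limma, adjusted p = 3.29e-08). The genes of this list that rose from Fraction 6 to Fraction 7 included Pik3r5 and Pik3r6, adaptors of the PI3K gamma enzyme. Pik3r5 was at 5.24 ± 0.887 (n = 2) against 22.2 ± 4.37 FPKM (n = 3) and Pik3r6 at 0.299 ± 0.0381 against 9.27 ± 1.25. Pik3cg, the gene of the catalytic subunit of that enzyme, went the other way, from 18.5 ± 2.82 to 6.69 ± 0.690 FPKM. Sgk1, a kinase related to AKT that also phosphorylates FOXO proteins, rose from 1.41 ± 0.659 to 11.1 ± 3.16 FPKM. Between LZ and Fraction 7, 6 of the 23 rose and 12 fell, beside 24.1% and 38% of all tested genes. The split became 9 and 7 with quantile normalization and 9 and 9 with median-ratio scaling. The median log2 change was -0.20, and also -0.20 without Fraction 7 libraries 2 and 3.

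Of 19 genes for proteins that modify or carry FOXO factors, 9 fell from Fraction 3 to Fraction 5 and 10 did not pass, with a median log2 change of -0.25 beside -0.03. With quantile normalization 7 fell and 2 rose with a median of -0.07, and with median-ratio scaling 9 fell and 1 rose with a median of -0.19. The 9 included Prmt1, an arginine methyltransferase, from 88.8 ± 4.18 to 55.6 ± 5.54 FPKM (n = 3 each), and Ywhae, a 14-3-3 protein gene, from 199.7 ± 3.49 to 132.9 ± 12.4. Xpo1, the nuclear export receptor gene, went from 49.4 ± 2.76 to 34.6 ± 3.11 FPKM. Between LZ and Fraction 7, 12 fell and 3 rose, beside 38% and 24.1% of all tested genes. The median log2 change there was -0.50 beside -0.10. Usp7, a deubiquitinase, was lower in Fraction 7 than in LZ by 1.17 on the log2 scale (limma, adjusted p = 7.65e-10). Skp2, a ubiquitin ligase subunit that targets FOXO1, was higher in Fraction 2 than in Fraction 3 at 9.22 ± 0.323 (n = 2) against 5.67 ± 0.634 FPKM (n = 3), a log2 change of 0.62 (adjusted p = 0.0199). That call was lost without Fraction 2 library 1 (adjusted p = 0.112), Fraction 2 library 2 (0.0851) or Fraction 3 library 3 (0.0732), and without the filter (0.0524).

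Other genes counted as FOXO targets rose more often than they fell on entry to Fraction 5 and split 6 and 6 at the last step. Of 28 tested, 22 did not pass in Fraction 2 against Fraction 3 and 6 were lower, among these Gadd45a, a DNA damage response gene, at 6.34 ± 0.674 (n = 2) against 10.8 ± 0.746 FPKM (n = 3). The autophagy kinase gene Ulk1 and Klf2 were also lower; the call of Gadd45a was lost without Fraction 2 library 1 (adjusted p = 0.0550) and that of Klf2 without Fraction 2 library 2 (adjusted p = 0.103). From Fraction 3 to Fraction 5, 13 rose and 1 fell, with a median of 0.28 beside -0.03. Sesn1, a stress-response gene that restrains mTORC1, went from 8.54 ± 0.474 to 16.8 ± 1.03 FPKM (log2 change 0.90, adjusted p = 2.74e-06). Cdkn1b, which encodes the CDK inhibitor p27, went from 9.08 ± 1.77 to 19.0 ± 1.47, and Pik3ip1, an inhibitor of PI3K, from 1.12 ± 0.225 to 3.56 ± 0.413 (n = 3 each). From Fraction 5 to Fraction 6, 8 rose and 4 fell, and the rises were led by genes of lymphocyte egress and homing. S1pr1, the receptor for exit from lymphoid tissue, went from 4.17 ± 1.12 (n = 3) to 37.3 ± 6.82 FPKM (n = 2). Klf2, the factor that drives it, went from 35.3 ± 5.65 to 173.7 ± 19.1 FPKM. From Fraction 6 to Fraction 7, 6 rose and 6 fell, or 7 and 3 without Fraction 7 libraries 2 and 3, 8 and 6 with median-ratio scaling and 9 and 6 with quantile normalization. From LZ to Fraction 7, 14 rose and 6 fell, beside 24.1% and 38% of all tested genes. These counts became 17 and 4 with quantile normalization and 17 and 5 with median-ratio scaling. Over all genes, the share of calls that are higher also moved, from 38.8% to 50% and 52.5% in that order. S1pr1 and Ccr7 are also on the list of naive and marginal zone B cell markers, whose summed level ran from 344 to 360 FPKM in Fraction 2 to 719 to 853 in Fraction 7. Of the 22 target genes with a RefSeq window, Bcl2l11 and Bbc3 held the forkhead core (9.09%, beside 3.54% of all genes). The higher share was not particular to that motif. The E-box stood in 6 of the 22 (27.3%, beside 6.86%) and the CCAAT box in 14 (63.6%, beside 37.5%).

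Among 11 other forkhead genes tested of 35 listed, Foxm1, the factor of proliferating cells, fell along the CD38+ gates. It went from 22.1 ± 0.830 in LZ (n = 3) and 14.97 ± 0.885 in Fraction 5 (n = 3) to 4.69 ± 0.127 in Fraction 6 (n = 2) and 2.02 ± 0.680 FPKM in Fraction 7 (n = 3). Its log2 change from Fraction 5 to Fraction 6 was -1.49 (limma, adjusted p = 1.18e-05). Foxp4, the relative of Foxp1, was higher in Fraction 2 than in Fraction 3, the opposite of Foxp1 in that comparison. Its level was 19.4 ± 2.20 FPKM (n = 2) against 11.6 ± 0.889 (n = 3), a log2 change of 0.69 (limma, adjusted p = 0.00190). From Fraction 3 on its mean rose, as that of Foxp1 did, to 16.9 ± 1.78 in Fraction 5 and 23.9 ± 0.362 in Fraction 6. It was 26.7 ± 2.16 FPKM in Fraction 7, where mean Foxp1 was below that of Fraction 6. In Fraction 7 against LZ, 5 of the 11 rose and 3 fell, beside 24.1% and 38% of all tested genes. Of 10 listed paralogs of the target genes 7 were tested. In that comparison Arrdc2 and Arrdc3, arrestin-domain relatives of Txnip, rose by 0.64 and 0.42 on the log2 scale (adjusted p = 0.00242 and 0.0268) and Ccni, a relative of Ccng2, fell by 0.31 (adjusted p = 0.0157). The call of Arrdc3 was lost without LZ library 1 (adjusted p = 0.108) or Fraction 7 library 2 (0.109), without the filter (0.0570) and without Fraction 7 libraries 2 and 3 (0.167). That of Ccni was lost without LZ library 2 (0.0717), Fraction 7 library 3 (0.0795) or Fraction 7 libraries 2 and 3 (0.169), and its sign turned to 0.10 with quantile normalization. The split of 2 and 1 became 6 higher with quantile normalization and 5 higher with median-ratio scaling.

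The pathways that also control Tsc22d3 and Txnip were mixed. Nr3c1, the glucocorticoid receptor gene, fell while Tsc22d3 rose, from 20.1 ± 0.441 in LZ to 14.0 ± 0.728 FPKM in Fraction 7 (n = 3 each; log2 change -0.50, adjusted p = 3.22e-05). Of 9 glucocorticoid response genes tested of 12, 3 rose and 4 fell in that comparison, beside 24.1% and 38% of all tested genes. Sgk1, given above with the kinases, is also on this list, at 0.332 ± 0.181 FPKM in LZ and 11.1 ± 3.16 in Fraction 7. Ddit4, an inhibitor of mTORC1, rose from 24.2 ± 1.48 to 57.3 ± 4.83 and Fkbp5, a receptor cochaperone and common glucocorticoid target, fell from 14.7 ± 0.485 to 4.01 ± 0.779. Of 11 genes of glucose sensing and the thioredoxin system tested of 13, 4 rose and 5 fell in Fraction 7 against LZ. The shares over all genes there were again 24.1% and 38%. Txn1, the thioredoxin that the Txnip product binds, fell from 228 ± 15.2 to 59.8 ± 2.41 FPKM (log2 change -1.91, adjusted p = 2.27e-10), while the glucose transporter gene Slc2a3 rose from 5.33 ± 0.506 to 14.5 ± 0.773. Mlxip, whose product MondoA switches on Txnip when glucose is high, was 27.1 ± 1.59 FPKM in Fraction 6 (n = 2), above Fraction 5 at 19.7 ± 1.82 (n = 3; log2 change 0.44, adjusted p = 0.0149). It was also above Fraction 7, at 20.9 ± 1.46 (n = 3; Fraction 7 against Fraction 6 -0.36, adjusted p = 0.0377). The difference from Fraction 5 was lost without Fraction 6 library 1 (adjusted p = 0.134) or Fraction 5 library 2 (0.0588). The difference from Fraction 7 was lost without Fraction 6 library 1 (0.216) or 2 (0.0944), Fraction 7 library 1 (0.0652) or 3 (0.112) or Fraction 7 libraries 2 and 3 (0.163), and with quantile normalization (0.0944) or median-ratio scaling (0.109).

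**Figure D4:**
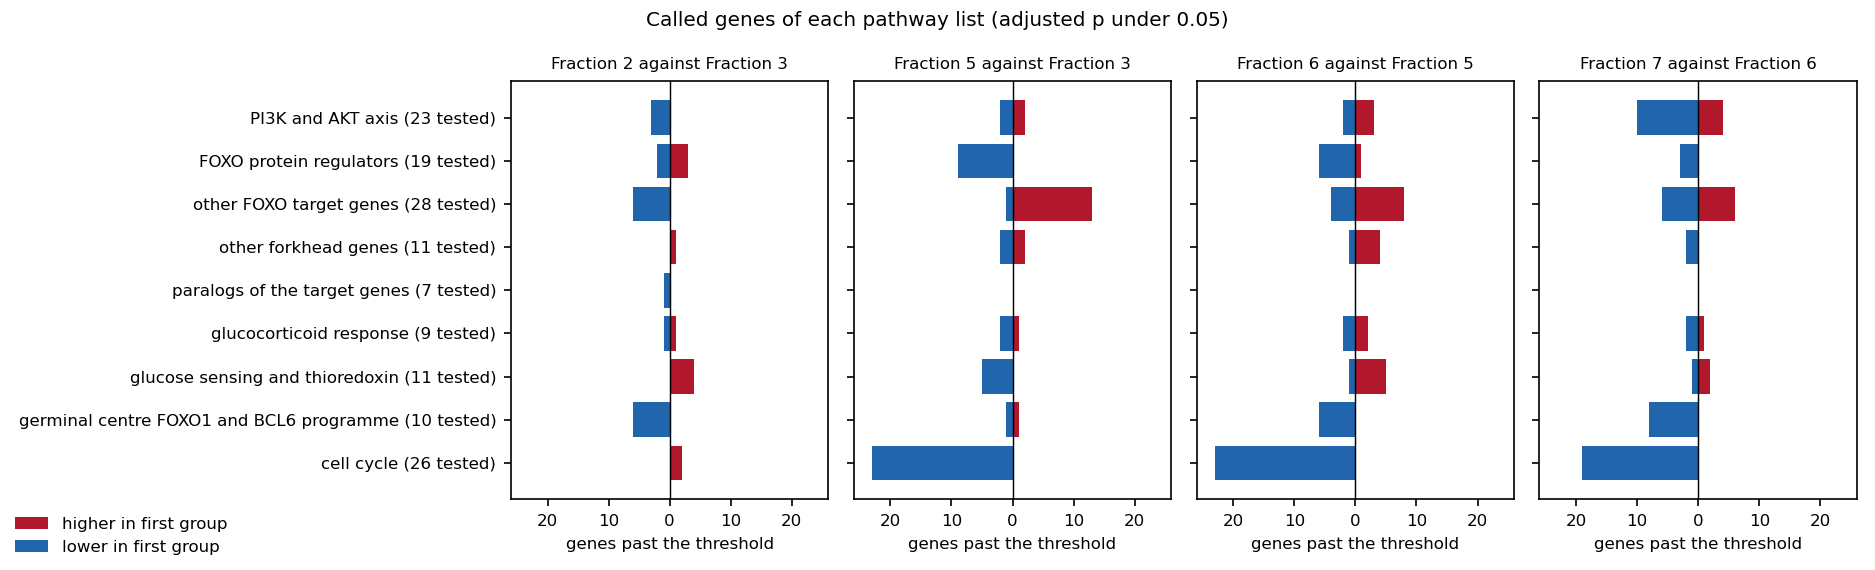
Number of genes past the adjusted p threshold in each pathway list, drawn to the right for higher and to the left for lower in the gate named first, in 4 comparisons. Other FOXO target genes have 13 higher and 1 lower in Fraction 5 against Fraction 3 and 6 each way in Fraction 7 against Fraction 6, while the cell cycle list has 23 lower in Fraction 5 against Fraction 3, 23 in Fraction 6 against Fraction 5 and 19 in Fraction 7 against Fraction 6.

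Germinal centre and cell cycle genes changed between the same gates. Of 10 genes of the germinal centre programme tied to FOXO1 and BCL6, 6 were lower in Fraction 2 than in Fraction 3. The share of all tested genes lower there was 6.45%. From Fraction 2 to Fraction 5, 7 of the 10 rose, beside 16.6% of all genes. From Fraction 5 to Fraction 6, 6 of the 10 fell, beside 10.4%. From Fraction 6 to Fraction 7, where Foxo1 fell, 8 of the 10 fell, beside 13.9% of all genes. The 8 included Ccnd3, a cyclin of dark zone cells, from 61.1 ± 1.52 (n = 2) to 24.3 ± 2.49 FPKM (n = 3). From Fraction 3 to Fraction 5, where Foxo1 did not pass and Foxp1 and Txnip rose, 1 rose and 1 fell. With quantile normalization these counts were 3 and 0, and with median-ratio scaling 2 and 1. In the main fit 9.99% of all genes rose in that comparison and 19.5% fell. The summed level of 26 cell cycle genes was 1841 to 1944 FPKM in LZ, 2391 to 2488 in Fraction 2, 1959 to 2060 in Fraction 3, 889 to 1194 in Fraction 5, 341 to 372 in Fraction 6 and 218 to 267 in Fraction 7. It was highest in Fraction 2, where Txnip, Tsc22d3, Foxp1 and Ccng2 had their lowest means, while those of Foxo3 and Foxo4 were lowest in LZ. In Fraction 7, where the sum was lowest, Foxo1 had its lowest mean and Foxo3, Foxo4, Tsc22d3 and Txnip their highest. Foxp1 had its highest mean in Fraction 6 and Ccng2 in Fraction 5. The part of the cell cycle level in the changes of the members was not tested, nor was that of the plasma, naive B cell and monocyte gene levels given above.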

How the data were processed

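Messenger RNA was measured in 16 libraries of sorted mouse B cells in 6 groups (LZ 3, Fraction 2 2, Fraction 3 3, Fraction 5 3, Fraction 6 2 and Fraction 7 3). Per the labels' protocols, RNA was taken with TRIzol and libraries were made with an NEBNext Ultra kit. Per the submitters' processing notes, the tools were TopHat2 2.0.8 and Cufflinks 2.1.1 on mm9, and the authors deposited FPKM per gene. Spliced alignment and FPKM scaling share reads between overlapping genes and make every level relative to the whole library, so a shift in the abundant genes moves all others.

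The 7 members and all gene lists were chosen with earlier results of these data known. Of 23234 named genes, 11266 passed a filter of 1 FPKM or more in 2 or more libraries and were tested, and 1 row without a name was left out. The test was limma (version 3.58.1, in R 4.3.3) on log2(FPKM + 1), with a mean for each of the 6 groups and a variance trend, and Benjamini-Hochberg adjustment ran within each of 7 comparisons at a threshold of 0.05. The model was checked on simulated data.

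All 7 members are named in each comparison. From each pathway list, up to 4 genes past the threshold by smallest adjusted p could be named, beside Foxm1, Akt1, Nr3c1, Mlxip and Cdkn1b, and the account keeps to some of these; some genes the rule gives are not reported here. The genes nearest to a member were the 3 with the smallest root mean square difference among genes whose mean reached 5 FPKM in 1 group or more. Marker lists of T, plasma, naive or marginal zone B, macrophage or monocyte, neutrophil, dendritic, erythroid and NK cells were summed per library. The neutrophil list summed to 0 to 31.8 FPKM, the dendritic list to 13.9 to 35.1, the erythroid list to 12.5 to 70.1, the NK list to at most 0.507, the T cell list to 7.04 to 36.9 and the plasma list to 76.9 to 287 outside Fraction 7 and 139 to 542 in it. Igj, Emr1 and Foxf1a stood for Jchain, Adgre1 and Foxf1; Trac, Ighd and Ly6g were not matched.

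Promoter windows are RefSeq's, of build GRCm38.p6, and were used for sequence only, since the files are on mm9. Replicate numbers in the titles were not taken to pair the samples: over 36 pairs of libraries with the same number, deviations from the group means correlated at -0.184 to 0.155. As alternatives the libraries were rescaled (quantile normalization or median ratios), weighted by array weights or left out singly, the pseudocount was 0.1, the filter was dropped or raised to 5 FPKM, the compared groups were fitted alone, and replicate number was a block. Another, added after the data were seen, left out libraries 2 and 3 of Fraction 7. Figures were drawn with matplotlib 3.10.9 in Python 3.11.15.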

Additional observations from a re-analysis of the deposited data

How the results depend on the processing

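Of 49 results (7 genes in 7 comparisons), 32 passed, and 23 of these kept their direction and passed under every alternative and under omission of each library of the compared groups; 9 were lost and 7 others gained in at least 1 setting, as given in the report and, for the replicate block, below, and over 518 fits without a library of another group 10 calls changed. Signs changed for 3 results near 0, none past the threshold: Foxo4 in Fraction 2 against Fraction 3 (-0.0107 with quantile normalization, and between -0.127 and 0.213 with 1 library left out, negative without Fraction 2 library 2 or Fraction 3 library 1), Foxo4 in Fraction 7 against Fraction 6 (between -0.0125, without Fraction 6 library 1, and 0.383), and Tsc22d3 in Fraction 5 against Fraction 3 (0.054 with quantile normalization, 0.0443 with median-ratio scaling, and between -0.0891 and 0.0441 with 1 library left out, positive without Fraction 3 library 1 or 3 or Fraction 5 library 2). Of 30 results for list genes named with values or a direction, all past the threshold, 7 were lost in at least 1 setting, among them Ccni in Fraction 7 against LZ, which turned to 0.103 with quantile normalization. The number of genes called in Fraction 2 against Fraction 3, 1760, was 1121 without the filter, where more genes are tested, and 1108 in a fit to the compared groups alone, where fewer samples set the spread. In Fraction 7 against Fraction 6, 2393 became 1248 in that fit and 1589 without Fraction 7 libraries 2 and 3. With 1 library left out, the calls ranged from 660 (without Fraction 2 library 2) to 1980 for Fraction 2 against Fraction 3, 2355 to 3498 for Fraction 5 against Fraction 3, 3817 to 5088 for Fraction 5 against Fraction 2, 1152 (without Fraction 6 library 1) to 2138 for Fraction 6 against Fraction 5, 1334 (without Fraction 6 library 2) to 2491 for Fraction 7 against Fraction 6, 4733 to 5356 for Fraction 7 against Fraction 5 and 6489 to 7008 for Fraction 7 against LZ. Quantile normalization and median-ratio scaling moved the median of all genes in Fraction 7 against LZ by 0.12 and 0.15, and the share of calls that are higher there from 38.8% to 50% and 52.5%. In the same order that share went from 58.7% to 45.4% and 50.3% in Fraction 2 against Fraction 3, from 33.9% to 50.2% and 46.5% in Fraction 5 against Fraction 3, from 38% to 52.3% and 48.8% in Fraction 5 against Fraction 2, from 34.7% to 45% and 49% in Fraction 7 against Fraction 6 and from 40.1% to 48.9% and 52.6% in Fraction 7 against Fraction 5. The cause of the lost and gained calls was not tested. Depth in reads is unknown, so the floor of low values is not given.

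With the replicate number as a block, Foxo1 in Fraction 5 against Fraction 3 gained a call (0.32, adjusted p = 0.0496) and Foxo3 in Fraction 6 against Fraction 5 lost it (0.45, adjusted p = 0.0527), and no other call of the 7 genes changed. The calls over all genes under the block were 1618, 3518, 4908, 2076, 2471, 5498 and 7081 in the order of comparisons above. Of 16 libraries, 8 correlated best with one of their own number, and the median correlation was -0.0285 between libraries of the same number and 0.0123 between those of different numbers.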
